A study of Mus musculus with 2 samples.

Results

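The mir-34 and mir-449 microRNAs are a family of 6 mouse genes, Mir34a, Mir34b, Mir34c, Mir449a, Mir449b and Mir449c, that were taken by name as a seed family. All 6 were found among the 2202 microRNA genes counted. Short RNA was sequenced from the left cerebral cortex of 2 female mice, each 10 days old. Both were B6CASTF1/J mice from The Jackson Laboratory, whose parents are the inbred strains C57BL/6J (laboratory) and CAST/EiJ (wild-derived), with no treatment or engineered allele in the labels. The labels number the females and the biological replicates differently but give both the same donor entry, so animals 1 and 2 are biological replicates 1 and 2 of a single group, and nothing was compared between conditions.

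MicroRNAs are short RNAs that are cut from a hairpin transcript and guide repression of messenger RNAs that match the bases near their 5′ end, called the seed. The mir-34 genes are direct targets of the tumour suppressor p53, and Mir34a is the one made in the widest range of tissues. Mir34b and Mir34c, made from a shared transcript, and the Mir449 genes, which lie inside Cdc20b, are abundant in epithelia with many motile cilia, such as airway, oviduct and testis ducts. In mice that lack all 3 loci, motile cilia form poorly. In the brain such cells line the ventricles (ependyma) and cover the choroid plexus, next to the cortex.

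The mature sequences below are from RefSeq (build GRCm38.p6) and are written 5′ to 3′, with the seed, bases 2 to 8, in capitals. They are shown because the seed is what joins the family and because the bases after it tell the printed members apart in sequencing. RefSeq entries matched 5 of the 6 genes, 4 of them with an arm from the 5′ side. Mir449b had no entry and Mir34c only its 3′ arm, so the 5′ seed of neither was read here.
miR-34a-5p: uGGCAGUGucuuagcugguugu
miR-34b-5p: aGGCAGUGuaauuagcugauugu
miR-449a-5p: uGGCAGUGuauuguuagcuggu
miR-449c-5p: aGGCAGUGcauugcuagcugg
miR-34b-3p: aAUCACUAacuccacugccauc
miR-34c-3p: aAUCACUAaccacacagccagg

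The 4 printed 5′ arms carried the same seed, GGCAGUG, and no other mature arm entered in the RefSeq table had it at bases 2 to 8. Past the seed they also shared the run UAGCUG, a feature that the choice of members did not use. That run occurred in 1.02% of the 1674 distinct mouse mature sequences in the table. Between their first bases and their ends the 5′ arms differed by 4 to 7 single-base changes, insertions or deletions. Among these 4 arms, the closest pairs were miR-34a-5p with miR-34b-5p and miR-449a-5p with miR-449c-5p, each at 4. The 5′ arm of Mir34c was not among them, so its distance to miR-34b-5p was not measured. The arms from the 3′ side were less alike, and the closest of them, miR-34b-3p and miR-34c-3p, differed by 5 changes and shared the seed AUCACUA. Over the whole hairpins of the 5 members with an entry, the longest run of bases that a member shared with another member was 8 to 11. With any other hairpin of the table it was 10 to 14. All of these are shorter than the mature sequences, which are 21 to 23 bases long. A longest exact run does not count single-base differences, so it does not show how cleanly reads were assigned between members. The deposited counts are per hairpin, so both arms of a hairpin were summed and could not be told apart.

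The genes lie at 3 loci of the mouse genome (build mm10, GENCODE M21). Mir34a (ENSMUSG00000065493.1) is alone on chromosome 4, from 150068454 to 150068555 on the plus strand. Its 3′ end overlaps the exon of Gm37795, an unclassified transcript of the same strand. Mir34b (chromosome 9, 51103562 to 51103645) and Mir34c (51103034 to 51103110) stand 451 bases apart on the minus strand. Both lie opposite an intron of Btg4, a gene that clears maternal messenger RNA in the oocyte. The next gene on their own strand, 955 bases past Mir34c, is 4833427G06Rik, which RefSeq names Hoatz and which mouse motile cilia and sperm tails need. Mir449c (chromosome 13, 113035983 to 113036091), Mir449b (113037419 to 113037498) and Mir449a (113037534 to 113037624) are in an intron of Cdc20b on the same strand. Mir449b and Mir449a are only 35 bases apart, while Mir449c stands 1327 bases before Mir449b.

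**Figure D1:**
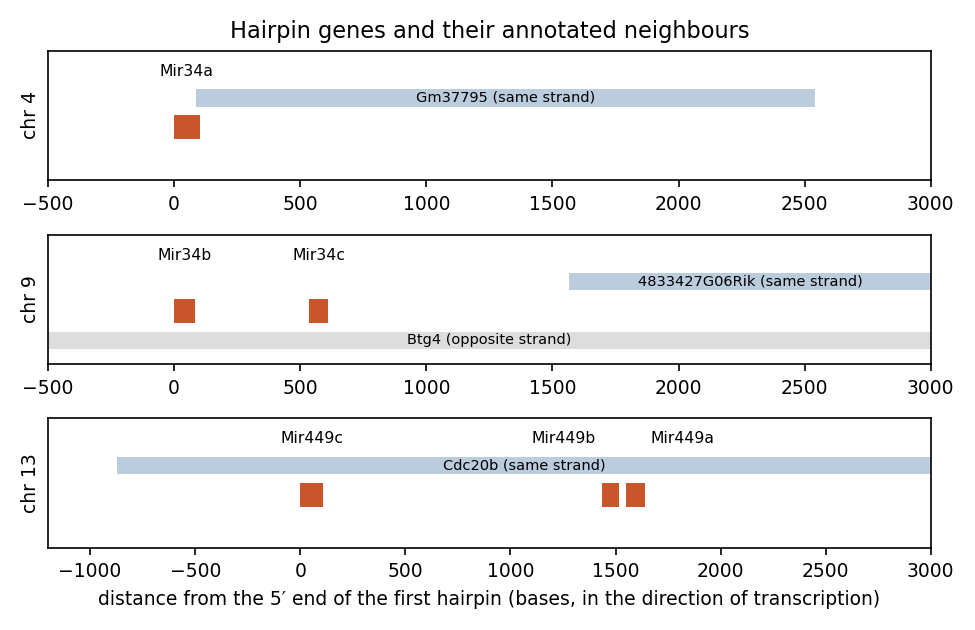
Positions of the 6 hairpin genes (red) and of annotated neighbouring genes (blue, same strand; grey, opposite strand) at the 3 loci, drawn to scale within each panel as distance in bases from the 5′ end of the first hairpin. Mir34b and Mir34c stand 451 bases apart opposite Btg4, and the 3 Mir449 genes lie within Cdc20b.

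On the own strand, 3806078 reads of animal 1 and 2602935 of animal 2 fell on microRNA genes, which were 33.5% and 30.4% of all reads. A further 42.7% and 40.4% mapped to several positions and were counted apart from the genes. Levels are given as CPM, the reads of a gene per 1000000 reads counted to microRNA genes. A library with 0 reads of a gene allows up to 3 reads, which is 0.788 CPM for animal 1 and 1.15 for animal 2. These limits and the exact Clopper-Pearson 95% intervals cover counting error only, since the reads carry no molecular identifiers that the files show. The counts give no read lengths or positions within the hairpin. Each read was taken to stand for a mature microRNA and not for a stretch of a longer transcript. On that footing CPM was compared between members without dividing by hairpin length. Dividing by it left the order of the members as it was in both libraries.

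The family made up a small part of the cortical microRNA reads and a different part in each animal. In animal 1 it had 2250 reads, 0.0591% of those counted (95% interval 0.0567 to 0.0616). In animal 2 it had 2783 reads, 0.107% (0.103 to 0.111). The mean was 0.083% ± 0.0338 (SD, n = 2), an SD that rests on a single difference. The intervals of the 2 libraries did not overlap.

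Of the 6 members, 3 reached 10 CPM in both libraries, namely Mir34a, Mir34c and Mir449a. Over all 2202 microRNA genes the share at that level was 13.9%. Mir34b fell short of it in both, Mir449c had 3 reads and 1 read, and Mir449b had none. The family was thus read almost wholly from 1 gene of each locus.

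Mir34a, the broadly made p53 target, was close in the 2 animals. It had 1332 reads, or 350 CPM (95% interval 331 to 369), in animal 1 and 845 reads, or 325 CPM (303 to 347), in animal 2. Its mean was 337 CPM ± 17.9 (SD, n = 2). By level it stood 159th of all genes in animal 1 and 152nd in animal 2, so it kept about the same place.

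Mir34c, of the locus on chromosome 9, was low in animal 1 and high in animal 2. It had 391 reads, or 103 CPM (92.8 to 113), in animal 1 and 1173 reads, or 451 CPM (425 to 477), in animal 2. The mean of 277 CPM ± 246 (SD, n = 2) therefore joins unlike values. Its place among all genes moved from 212th to 132nd.

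Mir34b, which precedes Mir34c in their transcript, was rare. It had 5 reads in animal 1, 1.31 CPM (0.427 to 3.07), and 18 reads in animal 2, 6.92 CPM (4.10 to 10.9). It too was higher in animal 2, and its intervals did not overlap. Reads of Mir34c outnumbered those of Mir34b by 78.2 to 1 in animal 1, with a 95% interval of 33.2 to 242, and by 65.2 to 1 in animal 2, with 41.1 to 110. These intervals overlap widely. The distance between the 5′ arms of Mir34b and Mir34c was not measured. Whether misassigned reads of Mir34c add to the few of Mir34b was not tested. Mir34b was the only member with reads on the opposite strand, 2 in animal 1 and 1 in animal 2, beside 5 and 18 on its own.

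Mir449a, the last gene of the locus within Cdc20b, was again lower in animal 1. It had 519 reads, or 136 CPM (125 to 149), in animal 1 and 746 reads, or 287 CPM (266 to 308), in animal 2, a mean of 211 CPM ± 106 (SD, n = 2). Its cluster partner Mir449c had 3 reads and 1 read, 0.788 and 0.384 CPM. Both values are within the limits that a count of 0 allows. Mir449b had 0 reads in both libraries, which allows up to 0.788 and 1.15 CPM. Mir449a outnumbered Mir449c 173 to 1 in animal 1 (58.9 to 842) and 746 to 1 in animal 2 (133 to 29500).

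**Figure D2:**
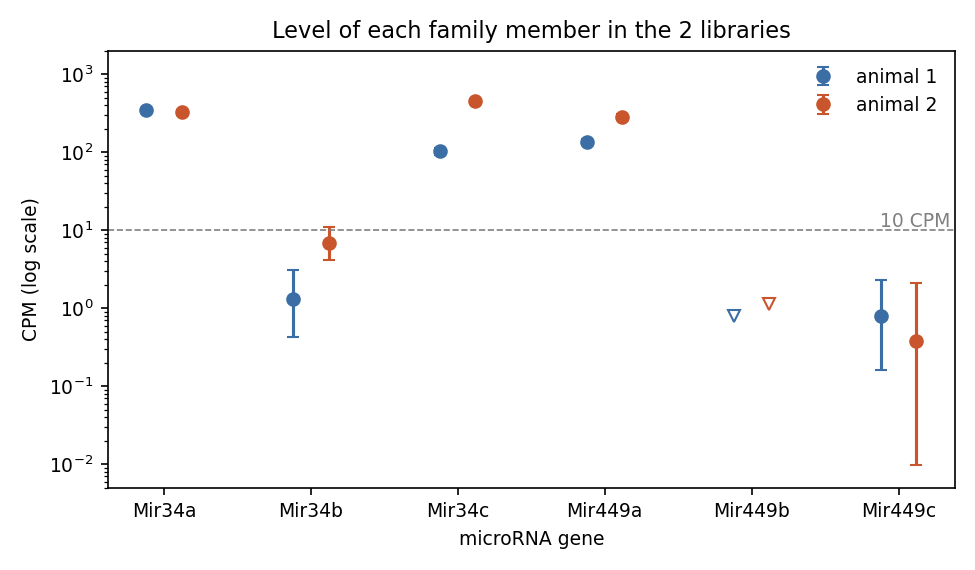
Level of each member in animal 1 (blue) and animal 2 (red), as CPM on a log axis, with exact 95% intervals of the counts and open triangles at the level that 0 reads allow. Mir34a nearly coincides (350 and 325 CPM), Mir34c (103 and 451) and Mir449a (136 and 287) separate, and Mir34b, Mir449b and Mir449c lie under the dashed line at 10 CPM.

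The order of the members by CPM differed between the libraries. In animal 1 it ran Mir34a, Mir449a, Mir34c, Mir34b, Mir449c and Mir449b. Neighbours at the top were apart by more than counting error there, with 2.57 reads of Mir34a per read of Mir449a (2.32 to 2.85) and 0.753 reads of Mir34c per read of Mir449a (0.659 to 0.861). Mir34b and Mir449c were not (1.67 to 1, with an interval of 0.324 to 10.7). In animal 2 Mir34c came first, with 0.720 reads of Mir34a per read of Mir34c (0.659 to 0.788) and 1.13 reads of Mir34a per read of Mir449a (1.03 to 1.25). Mir34a was thus above Mir449a in both libraries, while Mir34c was below both in animal 1 and above both in animal 2.

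The makeup of the family's reads moved accordingly. Mir34a supplied 59.2% of them in animal 1, with a 95% interval of 57.1 to 61.2, and 30.4% in animal 2, with 28.7 to 32.1. Mir34b and Mir34c together supplied 17.6% (16.0 to 19.2) and 42.8% (40.9 to 44.7). The Mir449 genes changed least as a share, from 23.2% (21.5 to 25) to 26.8% (25.2 to 28.5).

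**Figure D3:**
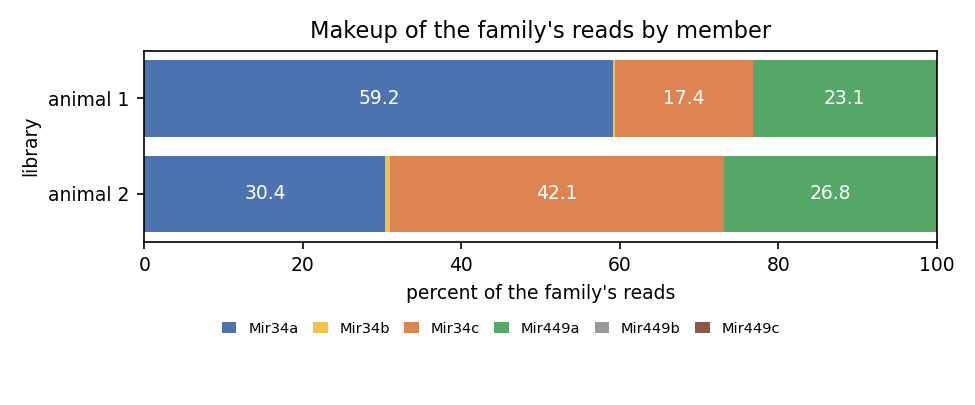
Percent of the family's reads that each member supplied in each library, as stacked bars that add up to the whole. The share of Mir34a is 59.2% in animal 1 and 30.4% in animal 2, and that of Mir34c 17.4% and 42.1%.

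Differences between the libraries were tested per gene with a two-sided exact conditional binomial test after TMM scaling (trimmed mean of M values, which corrects for a few genes taking up the reads). It was adjusted by Benjamini-Hochberg over the 531 genes with at least 10 reads in all. The test asks whether 2 libraries differ beyond counting noise and says nothing about conditions. Of the 6 members, 4 had enough reads to be tested. Mir34c was 5.05-fold higher in animal 2, a log2 ratio of 2.34 (95% interval 2.17 to 2.51, exact binomial adjusted p = 4.5e-201). Mir34b was higher by a log2 ratio of 2.50 (1.12 to 4.38, exact binomial adjusted p = 0.00027). Mir449a was 2.42-fold higher in animal 2, a log2 ratio of 1.27 (1.11 to 1.44, exact binomial adjusted p = 3.5e-54). Mir34a had a log2 ratio of 0.10 (-0.03 to 0.22, exact binomial adjusted p = 0.22) and did not pass. Mir449c was not tested; its log2 ratio had an interval of -6.55 to 2.80.

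Thus 3 of 4 tested members were called, all higher in animal 2. Among all genes tested the share called was 51.6%, with 24.7% called higher in animal 2 and 26.9% in animal 1. Passing the test was common at this depth: of 124 other genes with a mean log2(CPM + 0.5) between 6 and 10, a range chosen after the values were seen, 81.5% were called. That range holds Mir34a, Mir34c and Mir449a, while Mir34b, at 1.875, lies below it. Of all genes tested, 3.95% were called and at least 2-fold higher in animal 2, the 3 called members among them, and 13% were called and at least 2-fold higher in animal 1. Ranked by log2 ratio from animal 2 downward, Mir34b stood 5th, Mir34c 7th, Mir449a 20th and Mir34a 223rd of 531 genes. The median log2 ratio was 1.80 over the 4 tested members, which include 2 genes of a shared transcript, and -0.04 over all genes tested.

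**Figure D4:**
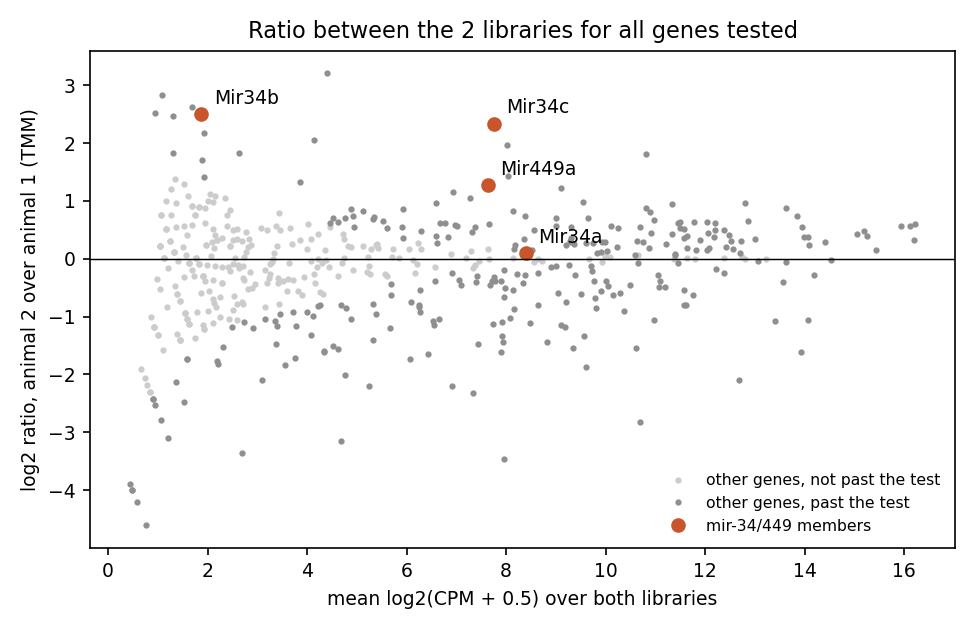
Log2 ratio of animal 2 over animal 1 after TMM against mean log2(CPM + 0.5), for the 531 genes tested, with the family in red, other genes past the test in dark grey and the rest in light grey. Mir34b, Mir34c and Mir449a lie in the upper part of the cloud at 2.50, 2.34 and 1.27, and Mir34a near its middle at 0.10.

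The calls were tested against counting noise, and the spread between animals could not be assessed apart from the difference itself. When edgeR's exact test was run with the dispersion estimated from the same 2 libraries as a single group, no gene passed, with 0 of 531 also at an unadjusted p under 0.05. In that form the difference between the animals is itself the measure of spread. The common biological coefficient of variation over the 531 genes was 38.0%. The value per gene was 33.6% for Mir34a, 45.9% for Mir449a, 62.5% for Mir34c and 66.9% for Mir34b, where the median gene had 34.7%. edgeR draws each of these values toward those of the other genes, so none is the gene's own spread alone. In CPM, Mir34a had a mean of 337 with an SD of 17.9, and Mir34c 277 with 246.

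Among the tested members, scaling changed the call or the sign of Mir34a only. With library totals in place of TMM the median log2 ratio over all genes tested was -0.25, and 91 genes were called higher in animal 2 and 189 in animal 1, against 131 and 143 with TMM. Under totals Mir34a had a log2 ratio of -0.11 (exact binomial adjusted p = 0.15), and with DESeq2 size factors it had 0.15 and was called (exact binomial adjusted p = 0.045). Mir34b, Mir34c and Mir449a were called, and higher in animal 2, under all 3 scalings and in the unstranded counts.

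**Figure D5:**
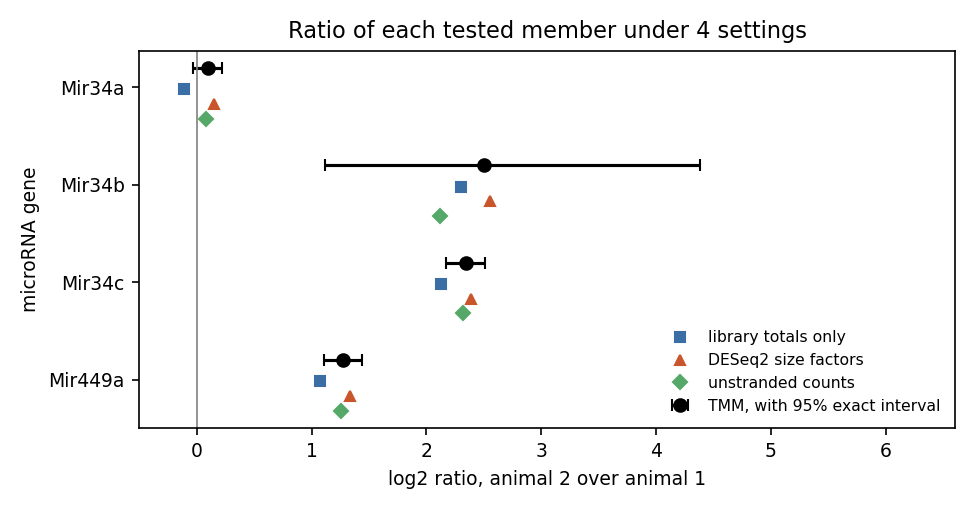
Log2 ratio of animal 2 over animal 1 for the 4 tested members, with TMM and its exact 95% interval (black), library totals (blue), DESeq2 size factors (red) and unstranded counts (green). Mir34a lies on either side of 0 (-0.11 to 0.15), and the other three stay above it in each setting.

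Whether the members changed by unequal amounts was tested for all 6 pairs of the 4 tested genes with two-sided Fisher's exact tests on their reads, which do not depend on library scaling, adjusted over the 6 pairs. These tests too cover counting noise only, not the spread between animals, and 4 pairs passed. Mir34c exceeded Mir34a in its log2 ratio of animal 2 over animal 1 by 2.24 (95% interval 2.03 to 2.45, Fisher's exact adjusted p = 6.4e-109). Mir449a exceeded Mir34a by 1.18 (0.97 to 1.39, Fisher's exact adjusted p = 9.1e-30). Mir34b exceeded Mir34a by 2.50 (1.01 to 4.29, Fisher's exact adjusted p = 0.00024). Mir449a minus Mir34c was -1.06 (-1.30 to -0.83, Fisher's exact adjusted p = 2.7e-19). Beyond counting noise, the 3 tested genes of the chromosome 9 and 13 loci thus each differed from Mir34a, and Mir34c differed from Mir449a. Within chromosome 9, Mir34c minus Mir34b was -0.26 with a wide interval (-2.06 to 1.23, Fisher's exact adjusted p = 1), since Mir34b had 23 reads in all. Mir449a minus Mir34b was -1.32 (-3.12 to 0.17, Fisher's exact adjusted p = 0.1).

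The label of the family names ciliated cells, and the messenger RNA markers of such cells are not measured by microRNA counts. MicroRNAs of the neighbouring choroid plexus were read beside it. Mir204, abundant in choroid plexus epithelium and also made in other cells, had 3293 and 1956 reads, 865 and 751 CPM in animals 1 and 2, and did not pass the test. Its relative Mir211 had 4 and 16 reads, 1.05 and 6.15 CPM, and was higher in animal 2 (log2 ratio 2.63, exact binomial adjusted p = 0.00055). The summed level of this list of 2 genes was 866 CPM in animal 1 and 758 in animal 2, neither gene at 0. In Fisher's exact tests against Mir204, which were chosen after the values were seen and adjusted over 4 tests, Mir34c exceeded Mir204 in the same log2 ratio by 2.34 (2.15 to 2.52, exact adjusted p = 4.2e-155). Mir449a exceeded Mir204 by 1.27 (1.09 to 1.46, exact adjusted p = 6.1e-44). Mir34b exceeded Mir204 by 2.60 (1.11 to 4.39, exact adjusted p = 0.00013). Mir34a differed from Mir204 by 0.09 (-0.06 to 0.24, exact adjusted p = 0.22). Mir204 itself had a log2 ratio of -0.00, so these differences nearly repeat the members' own ratios and are no separate result. They cover counting noise only and concern Mir204 alone. Mir211, which was higher in animal 2, was not used in such tests. In a bulk sample, fewer cells of a type and less RNA per cell cannot be told apart, and how much ventricular lining each dissection held was not tested.

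Other epithelial microRNAs were called in both directions, as happened among all genes tested (26.9% higher in animal 1, 24.7% higher in animal 2). The mir-200 family, which keeps cells epithelial, had 5 genes with reads, 3 at 10 CPM and 3 tested, of which Mir200b was higher in animal 1 (36.8 and 10.4 CPM, log2 ratio -1.60, exact binomial adjusted p = 9.5e-09). Mir429 (28.1 and 24.6 CPM) and Mir200c (20.5 and 19.6) did not pass, and Mir200a (4 and 3 reads) and Mir141 (2 and 1) were not tested. The whole list summed to 87.0 CPM in animal 1 and 56.1 in animal 2. Mir203, of stratified epithelia, was higher in animal 2 (114 and 207 CPM, log2 ratio 1.06, exact binomial adjusted p = 2.8e-29), as was Mir375, of endocrine and secretory epithelia (94.1 and 126 CPM, log2 ratio 0.62, exact binomial adjusted p = 7.5e-08). With these genes added, the epithelial marker list had 295 and 388 CPM, with 1 gene called higher in animal 1 and 2 in animal 2. In the mir-183 cluster of sensory cells, 0 of 2 tested genes were called: Mir183 had 47 and 22 reads, Mir182 29 and 9, and Mir96, not tested, 2 and 0.

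MicroRNAs outside the family that are known as linked to p53 went both ways. So did all genes tested, of which 26.9% were called higher in animal 1 and 24.7% in animal 2. The list leaves out the p53 targets Mir34a, Mir34b and Mir34c, whose log2 ratios were 0.10, 2.50 and 2.34. Of its 9 genes, 7 were tested, 4 called higher in animal 1 and 3 in animal 2. The median log2 ratio was -0.82, beside -0.04 over all genes tested. Higher in animal 1 were Mir15a (log2 ratio -1.88), Mir192 (-1.84, 87 and 14 reads), Mir16-1 (-1.44) and Mir194-2 (-0.82). Mir145a (1.96), Mir107 (0.95) and Mir143 (0.63) were higher in animal 2. Mir194-1 (0 and 2 reads) and Mir215 (2 and 0) had too few reads to test. Mir16-1, Mir194-1 and Mir194-2 have a near-identical copy elsewhere, so their levels are uncertain where reads mapped to both.

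Markers of other cell types also differed between the libraries, in which 51.6% of all genes tested were called. The neuron list, which the tissue label calls for, had reads for 10 of 10 genes. It summed to 36900 and 38300 CPM in animals 1 and 2, led by Mir128-1. Of its 8 tested genes, 1 was called higher in animal 1 and 4 in animal 2. The multi-copy Mir124a genes had 13 reads or fewer each. Endothelial Mir126a stood at 28900 and 8260 CPM, its partner Mir126b at 0. Smooth muscle and pericyte genes summed to 3150 and 4520 CPM, both higher in animal 2. The oligodendrocyte list summed to 1190 and 1640 CPM, with Mir219a-2 and Mir338 higher in animal 2 and Mir219a-1 in animal 1. As numbered gene copies, Mir219a-1 (77 and 4 reads) and Mir219a-2, like the Mir128 genes, have uncertain levels where reads mapped to both. Blood and microglial genes summed to 1590 and 1940 CPM, with 3 of 5 called, all higher in animal 2. The erythroid list summed to 78.0 and 46.5 CPM, with Mir144 and Mir451a higher in animal 1 and Mir486 not past the test. The part of these shifts in the family's ratios was not tested.

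Outside the family, the genes nearest to each tested member were found by distance in log2(CPM + 0.5) over the 2 libraries, the only samples there are. Nearest to Mir34a were Mir130b (346 and 331 CPM, distance 0.03), Mir421 (0.18) and Mir669c (0.18). Nearest to Mir34c was Mir145a (141 and 477 CPM, 0.46), then Mir376c (171 and 401 CPM, 0.75) and Mir203 (1.13). For Mir449a these were Mir30c-2 (0.48), Mir203 (0.53) and Mir376c (0.58). For Mir34b they were Mir146b (0.21), Mir211 (0.28) and Mir7073 (0.50), all with 17 or fewer reads in each library. With 2 libraries this likeness describes levels only.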

How the data were processed

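MicroRNA libraries of 2 mice, numbered as the biological replicates of the labels, were analysed as a single group. The deposited tables give raw read counts per hairpin gene, made by the authors on build mm10 with GENCODE M21 per the notes deposited beside each table. The sources used here name no aligner or counter. The own-strand counts were used. All 2202 gene IDs matched M21. Rows of unassigned reads (66.5% and 69.6% of reads in animals 1 and 2) were left out of library sizes. TMM factors (1.07 and 0.932) and dispersions came from edgeR 4.0.16 in R 4.3.3, with DESeq2 1.42.0 size factors as an alternative. The quasi-likelihood test needs a contrast and was not used. Exact tests used Python 3.11.15 and scipy 1.17.1, with a threshold of 0.05, and 0.5 was added to counts for log2 ratios. Log2 ratios are animal 2 over animal 1. The exact binomial test and the dispersion estimate were tested on simulated data. Per the labels the animals are separate biological replicates of a single group, and p-values on their reads compare these libraries only.

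The members, gene lists and tests were chosen with earlier results of these data known. The text names all members, the 3 nearest genes to each tested member, the listed genes and annotated neighbours.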

Additional observations from a re-analysis of the deposited data

How the results depend on the processing

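The share of the family (0.083% ± 0.0338, SD, n = 2) depended on the denominator. It was 0.0262% of all reads and 0.036% of counted plus multi-mapped reads, and in single libraries it ran from 0.0591 to 0.107%. Mir34a alone changed sign, with a log2 ratio of -0.11 under library totals. With edgeR's exact test and an estimated dispersion, 0 members and 0 genes were called, against 3 and 274, because that test takes the difference between the animals as its spread. Under the other alternatives 3 or 4 members and 249 to 280 genes were called. Log2 ratios over 7 alternatives ran from 2.12 to 2.58 for Mir34b, 2.13 to 2.39 for Mir34c, 1.07 to 1.33 for Mir449a and -0.11 to 0.15 for Mir34a. At 1 CPM 4 members were detected and at 100 CPM 3. The pair tests gave 4 calls in the unstranded counts and with every member that had a read, both alternatives chosen after seeing the data. A share over pairs of other genes was not computed for these counts either. Against Mir204, 3 members were called in the unstranded counts too. Depth limits Mir34b, Mir449b and Mir449c. No paired analysis was possible because the libraries form a single group.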
